A study of Homo sapiens with 16 samples.

Results

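The genes described here are 9 receptor tyrosine kinases, EGFR, ERBB2, ERBB3, PDGFRA, PDGFRB, FGFR1, MET, AXL and IGF1R, together with KITLG, the ligand of the receptor KIT. They are 10 of the 18417 genes that had a probe set of their own on Affymetrix Human Gene 1.0 ST arrays, which measure transcript levels. Each was taken as the probe set annotated to that gene alone with the highest mean. The series compared cells with and without STAG2, a subunit of the cohesin ring that holds sister chromatids together and helps fold chromosomes, in 3 human cancer cell lines. H4 and 42MGBA, labelled glioblastoma cells, carry a STAG2 mutation in the parental line, and HCT116, labelled colorectal cancer cells, is STAG2 wild-type. The H4 deficient group was the parental line and non-recombinant clones 10 and 12, and the H4 corrected group was the knock-in clones 8-1, 8-3 and 88-1 after Cre. The 42MGBA deficient group was the parental line and the pre-Cre knock-in clones 53 and 92, and the 42MGBA corrected group was the post-Cre clones 53-1, 53-7 and 92-6. The HCT116 knockout group was clones 7 and 21, and the HCT116 wild-type group was the non-recombinant clones 24 and 27. All cells grew untreated in DMEM with serum. Each array was 1 culture, so every clone was seen once, and the p-values cover no spread beyond that among these cultures. By their numbers, H4 clones 8-1 and 8-3 are sister clones from 1 parent clone, 8. Likewise, 42MGBA clones 53-1 and 53-7 come from clone 53, and 92-6 from clone 92. The main fit took neither the shared parents nor the pairing of pre-Cre and post-Cre clones into account.

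Receptor tyrosine kinases sit in the plasma membrane, bind a growth factor outside the cell and, as pairs, phosphorylate tyrosines on each other inside it. Those phosphotyrosines recruit adaptors that feed the RAS-MAP kinase and PI3-kinase-AKT cascades. Amplified or mutated EGFR and PDGFRA are recurrent drivers of glioblastoma. MET and ERBB3 are widely expressed in epithelia, and PDGFRB in pericytes and fibroblasts.

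Values are log2 expression as deposited. The 42MGBA arrays were on another scale, with medians over all probe sets of 5 to 5.05, against 6.23 to 6.3 on the H4 arrays and 6.24 to 6.29 on the HCT116 arrays. Levels are therefore compared between 42MGBA and the other lines only by percentile among the 33297 probe sets of the same array. Within a line, arrays correlated at 0.986 or more. On the first principal component, H4 clone 10 and HCT116 clone 21 stood farthest from the other arrays of their lines. STAG2 itself was at 6.57, 6.96 and 6.62 in H4 deficient and 8.94, 8.91 and 8.87 in H4 corrected cells, a difference of -2.19 ± 0.19 (SE, adjusted p = 2.37e-05). In HCT116 it was at 6.57 and 7.14 in knockout and 9.28 and 9.30 in wild-type cells (-2.44 ± 0.23, adjusted p = 0.000115; 0.0616 with HCT116 fitted alone). In 42MGBA the STAG2 levels were 4.75, 5.34 and 5.60 on the arrays labelled deficient and 5.65, 5.41 and 5.53 on those labelled corrected. These ranges overlapped (difference -0.30, adjusted p = 1), so the transcript gave no check of the 42MGBA labels. The glial and neural marker list had mean percentiles of 33.2 to 36.3 over the H4 and 42MGBA arrays and 36.7 to 37.5 over the HCT116 arrays. The list mean was thus not higher in the lines labelled glioblastoma, but its members differed in direction. OLIG1 was at 70.6 and 72.7 in 42MGBA deficient and corrected cells, against 55.7 and 57.4 in HCT116 knockout and wild-type cells. SOX2 was higher in H4 than in HCT116 but lower in 42MGBA, and MBP was lower in both. The list of 10 colorectal epithelial markers had mean percentiles of 46.2 to 50.8 over the H4 and 42MGBA arrays and 70.3 to 72.1 over the HCT116 arrays. EPCAM, an epithelial adhesion molecule, was at 97.0 in both HCT116 groups and 21.4 to 26.5 in the other lines, while KRT20, VIL1, LGALS4 and CDX2 from the same list did not set HCT116 apart from both other lines.

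The promoters of 5 of the genes whose deficient and corrected arrays did not overlap in H4 are printed, so that their base composition and motifs can be set side by side. Each is 250 bases before to 50 after the RefSeq start on assembly GRCh38.p14, read on the gene's own strand. Capitals mark matches on either strand to the GC box GGGCGG, a site class bound by SP1, to the AP-1 motif TGANTCA, to the E-box CACGTG and to TATAAA.
EGFR, chr7:55018767-55019066, plus strand: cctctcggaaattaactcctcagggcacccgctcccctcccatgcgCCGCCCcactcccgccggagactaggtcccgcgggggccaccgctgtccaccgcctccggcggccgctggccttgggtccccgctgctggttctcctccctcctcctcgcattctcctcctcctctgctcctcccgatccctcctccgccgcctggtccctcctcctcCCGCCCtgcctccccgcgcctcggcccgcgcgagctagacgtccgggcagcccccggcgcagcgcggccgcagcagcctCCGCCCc
PDGFRA, chr4:54229043-54229342, plus strand: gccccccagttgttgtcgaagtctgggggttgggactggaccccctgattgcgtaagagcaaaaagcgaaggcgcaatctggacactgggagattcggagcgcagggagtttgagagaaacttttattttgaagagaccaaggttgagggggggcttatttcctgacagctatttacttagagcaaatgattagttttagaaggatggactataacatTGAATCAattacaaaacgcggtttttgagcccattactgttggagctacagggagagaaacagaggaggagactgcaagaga
PDGFRB, chr5:150155796-150156095, minus strand: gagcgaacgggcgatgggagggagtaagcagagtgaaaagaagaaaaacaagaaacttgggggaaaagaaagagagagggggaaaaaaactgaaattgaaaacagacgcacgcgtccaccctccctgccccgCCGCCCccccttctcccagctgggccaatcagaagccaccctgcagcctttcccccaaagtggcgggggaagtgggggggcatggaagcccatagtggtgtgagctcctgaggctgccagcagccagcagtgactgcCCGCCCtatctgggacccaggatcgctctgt
MET, chr7:116671946-116672245, plus strand: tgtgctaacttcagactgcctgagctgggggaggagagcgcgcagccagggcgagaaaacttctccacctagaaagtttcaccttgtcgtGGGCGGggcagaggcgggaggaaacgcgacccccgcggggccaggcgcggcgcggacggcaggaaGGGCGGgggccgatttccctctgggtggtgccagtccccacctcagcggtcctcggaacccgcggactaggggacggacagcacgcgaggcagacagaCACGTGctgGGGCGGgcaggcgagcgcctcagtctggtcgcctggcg
KITLG, chr12:88580422-88580721, minus strand: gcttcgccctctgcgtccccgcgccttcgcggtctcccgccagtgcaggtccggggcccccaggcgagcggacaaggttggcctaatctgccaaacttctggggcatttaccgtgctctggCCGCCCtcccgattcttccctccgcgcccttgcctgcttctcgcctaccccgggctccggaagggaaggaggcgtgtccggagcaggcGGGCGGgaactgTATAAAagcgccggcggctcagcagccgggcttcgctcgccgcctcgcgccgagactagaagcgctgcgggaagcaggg
The EGFR window holds 33 CpG dinucleotides and 3 GC boxes at 75.3% G and C. The PDGFRA window holds 8 CpGs and no GC box, with 1 AP-1 match, at 47.0%. PDGFRB lay between these, with 11 CpGs, 2 GC boxes and 59.3%. The MET window has 30 CpGs, 3 GC boxes and 1 E-box. The KITLG window has 34 CpGs, 2 GC boxes and the TATAAA match. Over 27305 promoters of the same length the median was 14 CpGs and 58.3% G and C. The GC box was found in 44.6% of them, TATAAA in 12.0%, the AP-1 motif in 7.76% and the E-box in 7.43%. Of 8 of the genes matched in the table, 6 held a GC box, and CpG counts ran from 7 in AXL to 55 in IGF1R. The long core motif of CTCF, the DNA-binding protein that positions cohesin, was found in 0.0513% of all promoters and in none of the 8. No matches of different motifs overlapped in these windows. FGFR1 and ERBB3 were not matched. The EGFR and PDGFRA windows differed in CpG count and base composition. A relation between promoter features and the differences in H4 was not tested.

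In H4, 4 of the 10 genes fell in deficient relative to corrected cells and none rose. The 4 were EGFR, PDGFRA, PDGFRB and FGFR1, with log2 differences of -1.36 to -0.63. Among all 12978 genes tested, 3.31% passed the same threshold (adjusted p under 0.05), 2% as lower and 1.3% as higher. The 10 genes and the lists below were chosen with earlier results of these data known, so such shares are a description. The median difference over the 10 genes was -0.57, against 0.02 over all genes tested, and 8 of the 10 lay below 0, as did 45.6% of all genes. All 3 deficient arrays lay below all 3 corrected arrays for 5 of the genes, a pattern seen in 8.68% of all genes, and above them for 1, MET, a pattern seen in 12.1%. In a bulk culture, fewer cells that express a gene and less of its RNA per cell cannot be told apart.

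**Figure D1:**
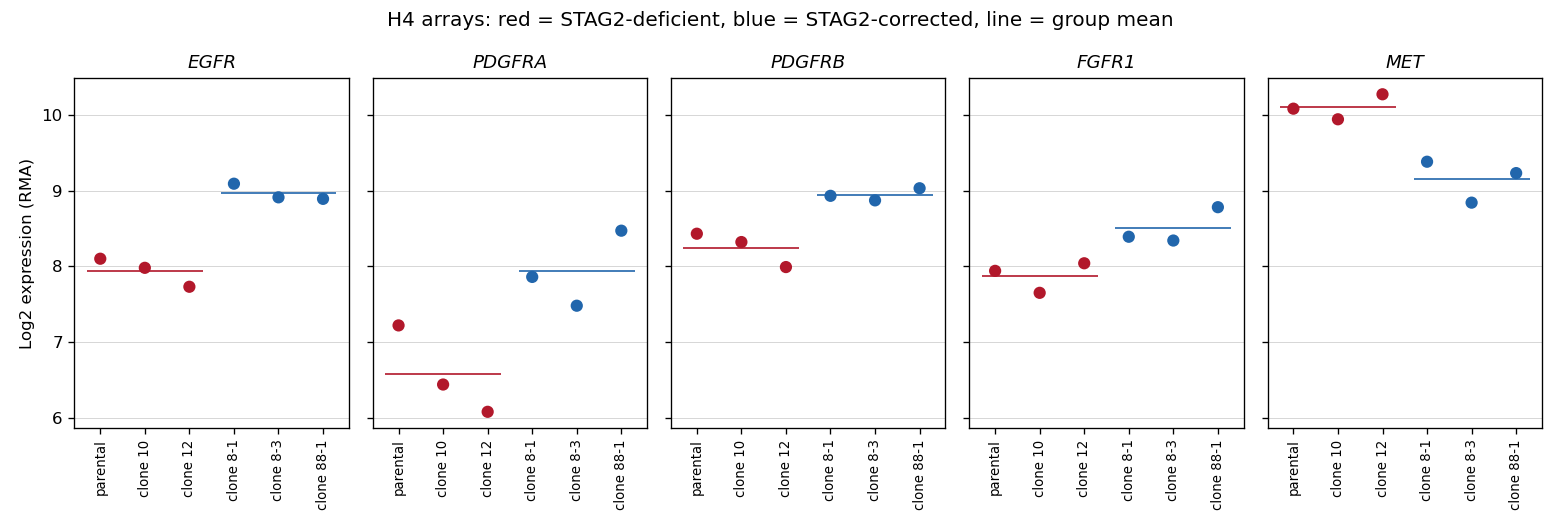
Log2 expression of EGFR, PDGFRA, PDGFRB, FGFR1 and MET on each H4 array; red points are STAG2-deficient, blue points STAG2-corrected cultures, and the line is the group mean (n = 3 each). The red points lie below the blue ones for the first 4 genes and above them for MET. The corrected clones 8-1 and 8-3 share a parent clone.

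EGFR, the receptor of EGF and TGF-alpha, fell. It was at 8.10, 7.98 and 7.73 in the parental line and clones 10 and 12, against 9.09, 8.91 and 8.89 in the corrected clones 8-1, 8-3 and 88-1. The highest deficient array lay well below the lowest corrected one. The difference was -1.03 ± 0.15 (SE), a 2.04-fold lower level (95% interval -1.34 to -0.71 on the log2 scale, adjusted p = 0.00215). EGFR ranked 32nd of all genes by p. The relatives ERBB2 and ERBB3 did not pass the test, and the difference between them and EGFR was not tested. ERBB2, which has no ligand of its own and serves as a partner, averaged 7.67 in deficient and 7.62 in corrected cells (difference 0.05, adjusted p = 0.888). ERBB3, which binds neuregulins and has a weak kinase, averaged 4.95 in deficient and 5.13 in corrected cells (difference -0.18, adjusted p = 0.393). For both, the deficient and corrected arrays overlapped.

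Both PDGF receptors fell. PDGFRA, which binds PDGF-A and PDGF-C dimers among others, was at 7.22, 6.44 and 6.08 in the deficient cultures and 7.86, 7.48 and 8.47 in the corrected clones. Deficient cultures varied more for this gene than for EGFR, and the parental line lay close to the lowest corrected clone. The difference was -1.36 ± 0.26 (2.56-fold lower, adjusted p = 0.0109). PDGFRB, the receptor of PDGF-B and PDGF-D, was at 8.43, 8.32 and 7.99 in deficient and 8.93, 8.87 and 9.03 in corrected cells, again without overlap. Its difference was -0.69 ± 0.15 (1.62-fold lower, adjusted p = 0.0253).

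FGFR1, a receptor of fibroblast growth factors, was at 7.94, 7.65 and 8.04 in deficient and 8.39, 8.34 and 8.78 in corrected cells. The groups did not overlap, and FGFR1 fell by 0.63 on the log2 scale (SE 0.13, 1.54-fold lower, adjusted p = 0.0191). MET, the receptor of hepatocyte growth factor, ran the other way, at 10.08, 9.94 and 10.27 in deficient and 9.38, 8.84 and 9.23 in corrected cells. Every deficient array was above every corrected one, with a difference of 0.95 ± 0.25, yet the adjusted p of 0.0532 missed the threshold. MET and EGFR are both on chromosome 7 and differed in opposite directions.

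AXL, the receptor of GAS6, was at 10.31, 9.44 and 9.91 in deficient and 10.55, 10.31 and 9.94 in corrected cells. The groups overlapped and the difference of -0.38 ± 0.24 did not pass (adjusted p = 0.485). IGF1R, the receptor of insulin-like growth factors, was at 8.16, 7.68 and 8.73 in deficient and 8.49, 8.70 and 8.98 in corrected cells, which overlapped (difference -0.53, adjusted p = 0.263). A further IGF1R probe set averaged 7.23 in deficient and 7.79 in corrected cells. KITLG was at 8.07, 8.29 and 8.47 in deficient and 8.74, 9.03 and 8.86 in corrected cells. Its groups did not overlap, but the difference of -0.60 ± 0.22 missed the threshold (adjusted p = 0.169).

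EGFR passed whichever of the 6 H4 arrays was left out, with adjusted p of 0.00185 to 0.0123. PDGFRA missed the threshold without clone 12 (adjusted p = 0.0508), FGFR1 without clone 10 (0.0627) or clone 88-1 (0.0711), and PDGFRB without clone 12 (0.107), 8-1 (0.0668), 8-3 (0.0613) or 88-1 (0.0835). MET passed in fits without the 42MGBA parental array (adjusted p = 0.0392), clone 92 (0.0347) or clone 92-6 (0.0335), which change only the shared spread, and with each array centred on its median (0.0437). When H4 was fitted alone, EGFR passed (adjusted p = 0.0362) and PDGFRA, PDGFRB and FGFR1 did not (0.133, 0.0756 and 0.135), and PDGFRB also missed with sister clones averaged (0.0851).

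In a list of 8 mesenchymal marker genes, 2 fell in H4 and 6 did not pass the test, where 2% of all genes fell. The mean level of the list was 9.17 to 9.76 on the H4 deficient arrays and 9.89 to 10.35 on the corrected arrays, without overlap. All 8 differences lay below 0, as did 45.6% of all genes. Their median was -0.63, against 0.02 over all genes tested, and the smallest was -0.01, for the filament protein VIM. COL1A1, a chain of type I collagen, differed by -1.49 ± 0.27 (adjusted p = 0.00898). COL3A1, the chain of type III collagen, differed by -2.24 ± 0.47 (adjusted p = 0.0193) and missed the threshold without clone 12 (0.0729), 8-1 (0.0736) or 88-1 (0.0651). With H4 fitted alone neither passed (0.137 for COL1A1 and 0.17 for COL3A1). All 8 genes lay above the array median on every H4 array, and none lay below the lower quartile. Their part in the receptor result was not tested.

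**Figure D2:**
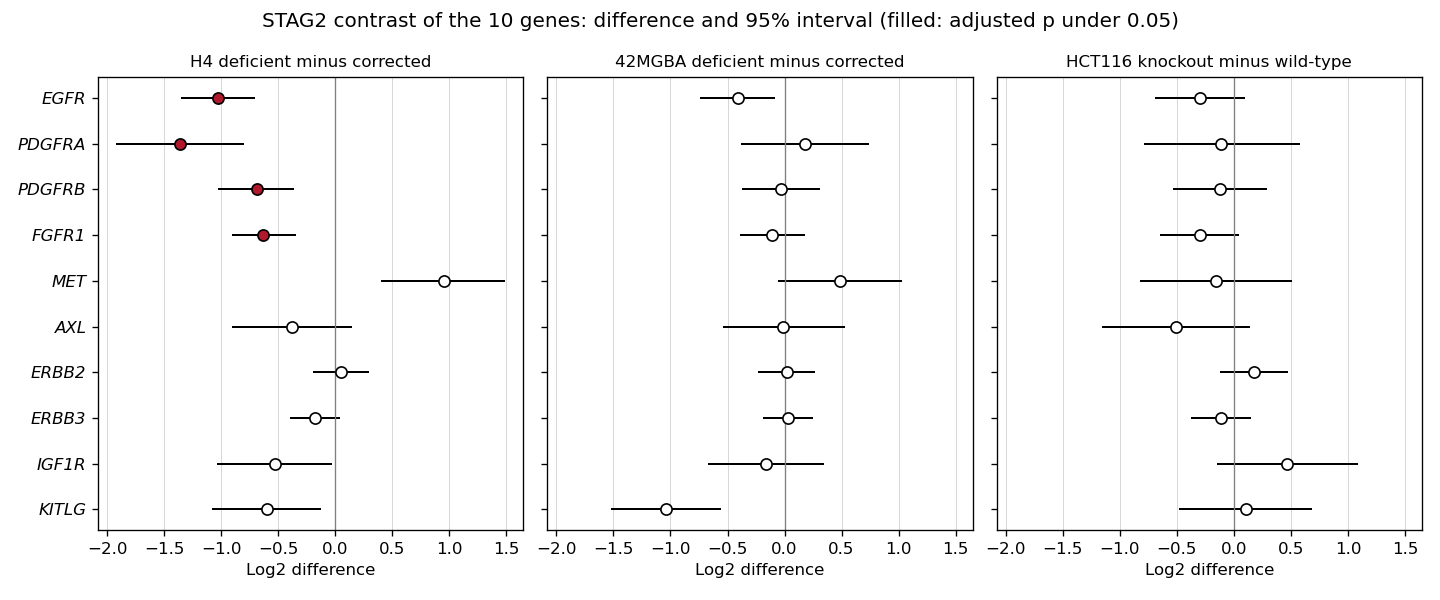
Log2 difference with its 95% interval for each of the 10 genes, deficient minus corrected in H4 and 42MGBA and knockout minus wild-type in HCT116; filled points passed an adjusted p of 0.05. The 4 filled points are all in H4, and in 42MGBA the KITLG point lies farthest from 0, at -1.04.

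In 42MGBA none of the 10 genes passed the test, and none of the 12978 genes did (0%), although 2 of the 10 genes and 512 of all genes (3.95%) had an unadjusted p under 0.05. The gene that differed most was the ligand. KITLG was at 4.51, 3.68 and 4.64 on the arrays labelled deficient and 4.93, 5.56 and 5.44 on those labelled corrected. It was low in this line, below the array median (5 to 5.05) on every deficient array and on clone 53-1. The 3.68 of clone 53 lay close to that array's lower quartile of 3.39. The 2 sets of arrays did not overlap, as for 6.33% of all genes in the same direction, and KITLG was the only one of the 10 with that pattern. Its difference was -1.04 ± 0.22, a 2.05-fold lower level in deficient cells, and it ranked 2nd of all genes by p (unadjusted p = 0.000295, adjusted p = 1). Leaving out each 42MGBA array in turn gave differences of -1.22 to -0.74, and the lowest adjusted p was 0.0772, without clone 53-1.

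The receptors gave smaller values in 42MGBA. EGFR was at 6.75, 6.59 and 6.27 in cells labelled deficient and 6.69, 6.92 and 7.23 in cells labelled corrected. These overlapped, with a difference of -0.41 ± 0.15 (unadjusted p = 0.0146, adjusted p = 1). MET was at 4.89, 4.50 and 3.88 in deficient and 3.75, 3.59 and 4.46 in corrected cells, a difference of 0.49 between overlapping groups. MET lay below the median of every 42MGBA array, and the 3.59 of clone 53-7 was close to that array's lower quartile of 3.41. PDGFRA was at 9.37, 9.35 and 9.06 in deficient and 9.25, 9.19 and 8.79 in corrected cells. Its difference was 0.18, with a 95% interval of -0.37 to 0.73. PDGFRB, FGFR1, AXL, ERBB2, ERBB3 and IGF1R differed by -0.16 to 0.03 in 42MGBA, and the median over the 10 genes was -0.02, against -0.03 over all genes. KIT, the receptor that KITLG engages on other cells or on the same cell, averaged 5.48 in deficient and 5.30 in corrected 42MGBA cells and did not pass (adjusted p = 1).

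In HCT116, the line whose STAG2 was knocked out, none of the 10 genes passed the test (adjusted p of 0.683 to 0.971), against 0.131% of all genes. At an unadjusted p under 0.05 the counts were 0 of the 10 genes and 7.83% of all genes. The knockout arrays lay below the wild-type arrays for 4 of the genes and above them for 2. With 2 arrays against 2 the same held for 22.1% and 18.5% of all genes. AXL was at 8.07 and 8.04 in knockout and 8.44 and 8.69 in wild-type cells (difference -0.51, 95% interval -1.15 to 0.13). EGFR was at 7.55 and 7.73 in knockout and 7.89 and 7.97 in wild-type cells, and FGFR1 was at 7.24 and 7.48 in knockout and 7.62 and 7.70 in wild-type cells. Both differences were -0.30, and neither passed. IGF1R was at 6.38 and 7.21 in knockout and 6.34 and 6.3 in wild-type cells, so only clone 21 stood apart, and the difference of 0.47 was 0.06 without it. KITLG, at 11.28 and 11.68 in knockout and 11.34 and 11.40 in wild-type cells, overlapped between the groups, as did MET, at 10.14 and 10.64 in knockout and 10.59 and 10.50 in wild-type cells. ERBB2 was at 8.19 and 8.41 in knockout and 8.12 and 8.11 in wild-type cells (difference 0.18), and PDGFRA, PDGFRB and ERBB3 differed by -0.12 to -0.11.

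The difference of the STAG2 contrast between lines was tested directly, since a call in H4 and none elsewhere does not show that the lines differ. None of the 10 genes passed for H4 minus HCT116 (0.293% of all genes did), for H4 minus 42MGBA (0.254%) or for 42MGBA minus HCT116 (0.0231%). Unadjusted p-values were under 0.05 for 5, 4 and 1 of the 10 genes, and for 13.5%, 11.3% and 4.85% of all genes. The lowest adjusted p was that of PDGFRA in H4 minus 42MGBA, where the contrasts differed by -1.54 ± 0.37 (adjusted p = 0.12). The 42MGBA arrays also had a narrower range, with interquartile ranges of 3.15 to 3.2 against 3.56 to 3.64 on the H4 arrays. Log2 differences in 42MGBA may therefore not be like for like with those of the other lines. For H4 minus HCT116, EGFR gave -0.73 ± 0.23 (adjusted p = 0.188), PDGFRA -1.25 ± 0.41 (0.191), MET 1.10 ± 0.40 (0.233) and IGF1R -1.01 ± 0.37 (0.243). For KITLG the contrast in 42MGBA minus that in HCT116 was -1.15 ± 0.35 (adjusted p = 0.698). Whether PDGFRA passed depended on the parental H4 array, whose 7.22 was the deficient value closest to the corrected clones. Without it, PDGFRA passed for H4 minus 42MGBA (-1.86 ± 0.31, adjusted p = 0.0108) and for H4 minus HCT116 (-1.57 ± 0.34, adjusted p = 0.046). Without the parental arrays of both H4 and 42MGBA, it passed only for H4 minus 42MGBA (-1.8 ± 0.33, adjusted p = 0.0277). PDGFRA was low in HCT116, at 4.94 to 5.11 and below the median on every array, which limits how far a fall could be seen there.

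Levels of most of these genes also separated the lines. H4 corrected and HCT116 wild-type cells, whose arrays share a scale, differed for all 10 genes, where 52.7% of all genes did. PDGFRA, PDGFRB and IGF1R were higher in H4 corrected cells by 2.89 ± 0.29, 2.86 ± 0.17 and 2.41 ± 0.26 on the log2 scale. AXL, EGFR and FGFR1 were higher there by 1.70, 1.03 and 0.84. KITLG differed by -2.50 ± 0.25, ERBB3 by -1.61 ± 0.11, MET by -1.40 ± 0.28 and ERBB2 by -0.50 ± 0.13, all lower in H4 corrected cells. ERBB3 entered the tests only through the 4 HCT116 arrays, where it lay above the median. PDGFRA and PDGFRB lay below the median on every HCT116 array, and MET on every 42MGBA array. These genes passed the filter through the lines where they were high, so the filter favoured a difference between lines. Between the STAG2-deficient groups, H4 deficient minus HCT116 knockout, 8 of the 10 genes differed, where 48.1% of all genes did. EGFR and MET did not, at 0.30 ± 0.17 (adjusted p = 0.152) and -0.29 ± 0.28 (adjusted p = 0.418). FGFR1, at 0.52 ± 0.15, missed the threshold without HCT116 clone 7 (0.40, adjusted p = 0.0997).

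**Figure D3:**
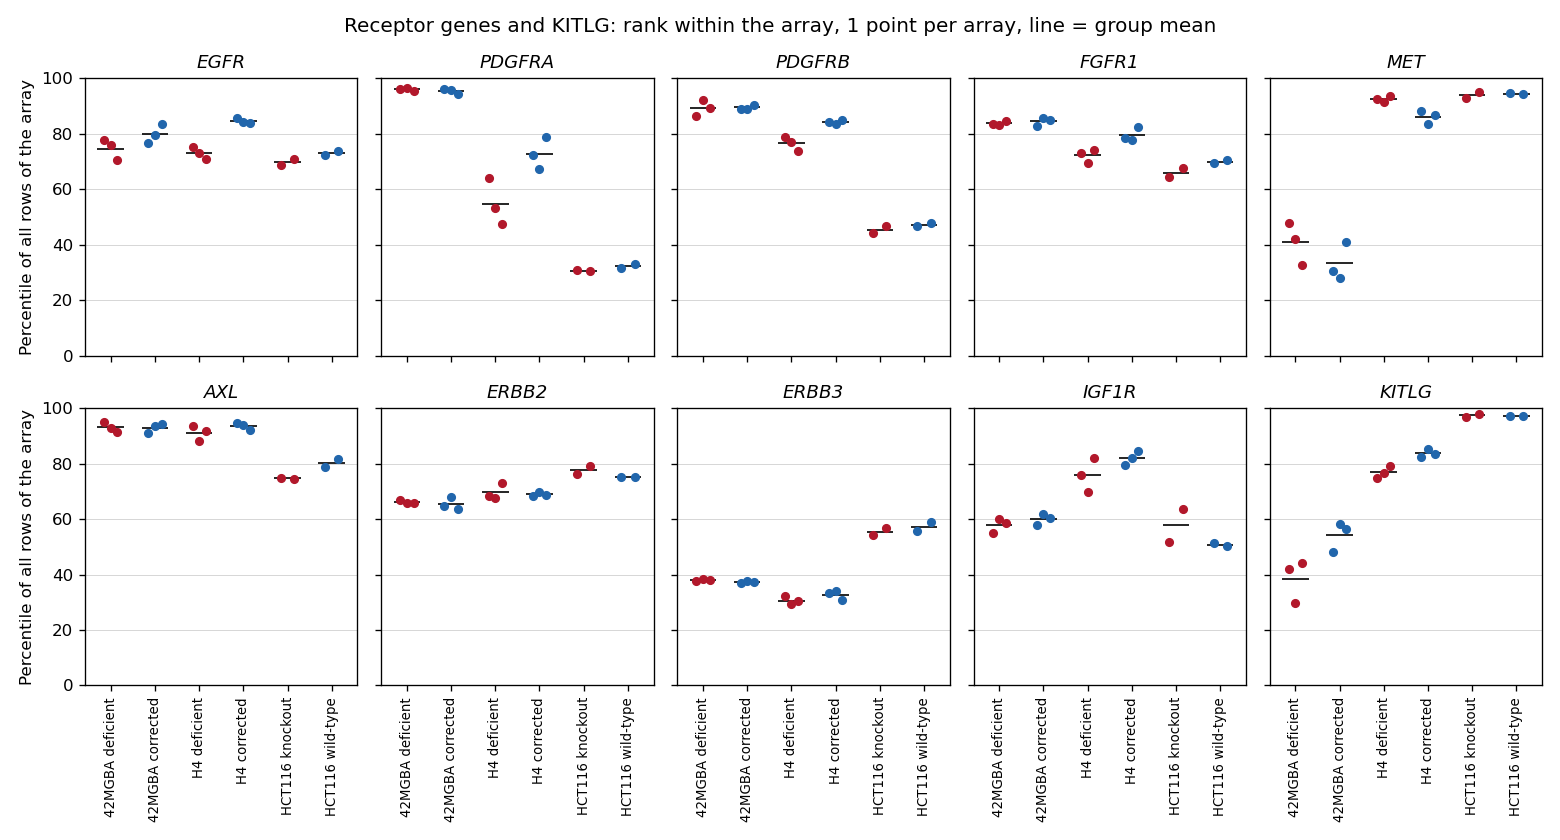
Percentile of each of the 10 genes among all probe sets of the same array, 1 point per array, for the 6 groups; red is deficient or knockout, blue is corrected or wild-type, and the line is the group mean. PDGFRA lies at 94.3 or more on every 42MGBA array and at 33 or less on every HCT116 array, and KITLG and MET run the opposite way.

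By percentile within the array, 42MGBA differed most from the other lines in PDGFRA, MET and KITLG. PDGFRA averaged the 96.1 and 95.3 percentiles in 42MGBA deficient and corrected cells, 54.8 and 72.7 in H4 deficient and corrected cells, and 30.7 and 32.3 in HCT116 knockout and wild-type cells. Its order was HCT116 below H4 below 42MGBA, and only the 42MGBA groups overlapped. PDGFRB and FGFR1 kept that order of lines, with averages in 42MGBA deficient and corrected cells of 89.3 and 89.5 for PDGFRB and 83.8 and 84.6 for FGFR1. MET ran the other way, at 40.8 and 33.3 in 42MGBA deficient and corrected cells, 92.6 and 86.1 in H4 deficient and corrected cells, and 94.0 and 94.6 in HCT116 knockout and wild-type cells. KITLG had 38.5 and 54.3 in 42MGBA deficient and corrected cells, 76.9 and 83.7 in H4 deficient and corrected cells, and 97.4 and 97.2 in HCT116 knockout and wild-type cells. For KITLG every group lay apart from the next in order, except the HCT116 groups.

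The other genes were closer together. AXL had 93.1 and 93.0 in 42MGBA deficient and corrected cells, 91.2 and 93.6 in H4 deficient and corrected cells, and 74.7 and 80.2 in HCT116 knockout and wild-type cells, and the 42MGBA and H4 groups overlapped. EGFR ran from 69.7 in HCT116 knockout to 84.6 in H4 corrected cells, and only the H4 corrected group lay apart from its neighbour in the order. ERBB2 ran from 65.4 in 42MGBA corrected to 77.6 in HCT116 knockout cells. ERBB3 had 37.9 and 37.3 in 42MGBA deficient and corrected cells, 30.6 and 32.8 in H4 deficient and corrected cells, and 55.4 and 57.3 in HCT116 knockout and wild-type cells. IGF1R was highest in H4, at 75.8 in deficient and 82.1 in corrected cells, with 57.9 and 60.1 in 42MGBA deficient and corrected cells and 57.8 and 50.8 in HCT116 knockout and wild-type cells.

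Fitted on percentiles with STAG2 status averaged, 42MGBA minus H4 differed for 8 of the 10 genes and 42MGBA minus HCT116 for 9. The same test called 81.5% and 81.6% of all genes, so these counts are close to the background and only the sizes set genes apart. MET was 52.32 percentile points lower in 42MGBA than in H4 (-52.32 ± 2.54) and KITLG differed by -33.88 ± 2.32, while PDGFRA was higher by 31.95 ± 2.44. Against HCT116, PDGFRA was higher in 42MGBA by 64.24 ± 2.72 and PDGFRB by 43.16 ± 1.15. MET and KITLG differed from HCT116 by -57.22 ± 2.84 and -50.86 ± 2.59. EGFR and AXL did not pass against H4 (-1.51 and 0.63), and IGF1R did not pass against HCT116 (4.71, adjusted p = 0.0987).

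Genes that supply, relay or restrain these receptors were taken from lists of the pathway, and their counts in H4 stand against 2% of all genes called lower and 1.3% called higher. In H4, 1 of 19 tested ligands fell, CSF1, the growth factor of macrophages, which acts on the related receptor CSF1R. It was at 8.90, 9.49 and 8.78 in deficient and 9.95, 10.04 and 9.86 in corrected cells (difference -0.89 ± 0.20, adjusted p = 0.0262). Of 17 other receptor tyrosine kinases, 2 fell. DDR2, a receptor of fibrillar collagen, was at 9.31, 9.07 and 9.25 in deficient and 9.68, 9.78 and 10.06 in corrected cells. The groups did not overlap, and DDR2 differed by -0.63 ± 0.10 (adjusted p = 0.00437). INSR, the insulin receptor, differed by -0.38 ± 0.09 (adjusted p = 0.0426).

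Of 20 adaptors and signal relays 1 rose, AKT1, a kinase downstream of PI3-kinase, by 0.32 ± 0.08 (adjusted p = 0.045). None of 25 inhibitors and degradation factors passed, and 6 had an unadjusted p under 0.05, as did 16.4% of all genes. ERRFI1, a feedback inhibitor of EGFR, gave 0.59 in H4 (adjusted p = 0.247). Of 6 IGF-binding proteins 1 fell, IGFBP7, at 7.81, 7.18 and 6.71 in deficient and 9.24, 8.72 and 8.43 in corrected cells. This was a difference of -1.56 ± 0.23, a 2.96-fold lower level (adjusted p = 0.0026). The list medians in H4 were -0.07 for ligands, -0.08 for other receptors, 0.03 for relays, 0.04 for inhibitors and -0.31 for IGF-binding proteins, against 0.02 over all genes. DDR2 and IGFBP7 passed without any 1 of the 6 H4 arrays, but not with H4 fitted alone (adjusted p of 0.0848 and 0.0806). With 1 H4 array left out, CSF1 and AKT1 passed only without clone 10, and INSR only without the parental line or clone 8-1. Their adjusted p reached 0.11 for CSF1, 0.173 for AKT1 and 0.159 for INSR with 1 array left out, and CSF1 (0.0868), AKT1 (0.173) and INSR (0.197) missed with H4 fitted alone. After quantile normalization INSR (0.0698) and AKT1 (0.0836) missed, and with sister clones averaged likewise (0.0623 and 0.146), as did AKT1 with no filter (0.0521).

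No gene of the 5 lists passed in 42MGBA or HCT116. In 42MGBA, ERRFI1 averaged 7.14 in cells labelled deficient and 8.18 in cells labelled corrected (difference -1.04 ± 0.25, unadjusted p = 0.000876). FGFR2, another receptor of fibroblast growth factors, averaged 6.13 in cells labelled deficient and 5.19 in cells labelled corrected (0.95 ± 0.27, unadjusted p = 0.00363). For both genes clone 53-1 was the corrected array closest to the deficient ones. Its FGFR2 level of 6.11 lay within the 5.89 to 6.39 of the arrays labelled deficient, so those groups overlapped. Without clone 53-1 both passed, FGFR2 with 1.41 (adjusted p = 0.0044) and ERRFI1 with -1.38 (0.0334). PROS1, a ligand of the AXL family, gave 0.53 in 42MGBA, 0.56 in HCT116 and -0.47 in H4 (unadjusted p of 0.00555, 0.0137 and 0.0118). In HCT116, CBLB, a ubiquitin ligase that sends activated receptors to degradation, averaged 6.72 in knockout and 6.01 in wild-type cells (0.71 ± 0.20, unadjusted p = 0.00281).

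**Figure D4:**
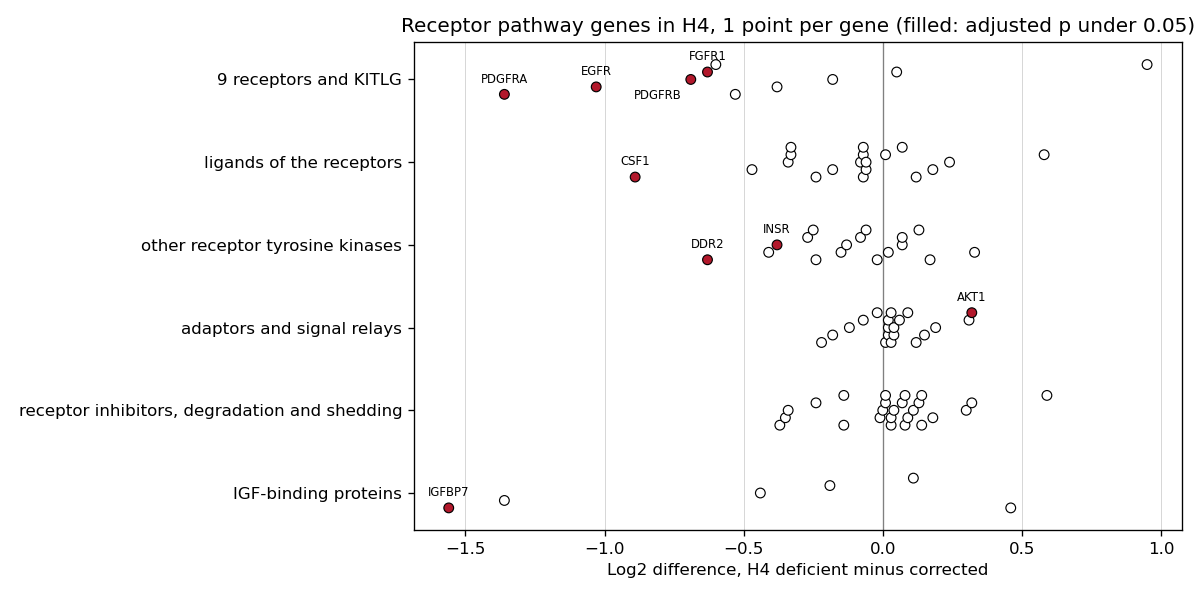
Log2 difference between H4 deficient and corrected cells for the 10 genes and for the tested genes of 5 pathway lists, 1 point per gene; filled, named points passed an adjusted p of 0.05. The relays and inhibitors crowd around 0, while PDGFRA at -1.36, EGFR at -1.03 and IGFBP7 at -1.56 lie far to the left.

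The genes that varied most like each receptor were found from Pearson's r over the 16 arrays after each line's mean was removed. These r values share the STAG2 contrast in H4 and are a description. EGFR ran with SPOCK1 (0.934), LPAR1 (0.909) and BIN1 (0.886). PDGFRA ran with SRGN, the core protein of a secretory-granule proteoglycan, at 0.953, SYT11 at 0.927 and AMTN at 0.915. PDGFRB ran with EPAS1, a hypoxia-inducible transcription factor subunit (0.931), BOC (0.909) and CD9 (0.907). FGFR1 ran with ALMS1 (0.913), TMEM65 (0.911) and the collagen receptor DDR2 (0.903). The values were lower for MET, whose list was RELL1 (0.848), STAG1 (0.845), the paralog of STAG2 in cohesin, and C8orf58 (0.842). STAG1 itself differed by 0.27 in H4 and did not pass (adjusted p = 0.276). KITLG ran with CHD1L (0.925), XNDC1N (0.849) and SERPINE2 (0.838). AXL ran with RANBP1 (0.879), ARHGDIA (0.879) and WDR5 (0.878), ERBB2 with NMUR1 (0.852), CAPS (0.842) and DNAJC4 (0.830), ERBB3 with FAR2 (0.856), TIAM1 (0.833) and TDRP (0.809), and IGF1R with PHC1 (0.895), PRKCQ (0.884) and CACNA1G (0.858).

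Of the 100 tested genes that flank the 10 on their chromosomes, 5 on each side, 4 fell in H4 and none rose. Among all genes 2% were called lower and 1.3% higher, and the total was near the 3.31% called in either direction. The 4 were NMU beside PDGFRA, SYNM beside IGF1R, and LUM and DCN, which encode small proteoglycans of the collagen matrix, beside KITLG. These 4 are named because of their values. The median difference of the neighbours ran from -0.26 beside KITLG to 0.28 beside MET, both of the same sign as the gene itself, and was 0 beside EGFR and 0.21 beside FGFR1, which fell.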

How the data were processed

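Total RNA of 16 cultures was hybridised to 1 array each. The deposited table holds log2 values; the submitters' processing notes name RMA and Affymetrix Expression Console as the authors' tools, with versions not given in the sources used here. Of 33297 probe sets, 19460 had 1 gene symbol, 1754 several and 12083 were not listed. Symbols were updated through RefSeq GRCh38.p14 for 19429, and 31 kept an older one. Where 769 genes had several probe sets, the highest mean was used. Genes above the array median on at least 2 arrays were tested (12978, including all 10 described). limma 3.58.1 in R 4.3.3 (lmFit, eBayes) fitted 6 groups in 1 model with a shared spread, Benjamini-Hochberg adjustment over all tested genes and a threshold of 0.05; the fit was tested on simulated data. Percentiles were fitted likewise. The smallest p-values of each pathway list chose its named genes, up to 4 a list; for each receptor the 3 genes of highest r were named. The genes and lists were chosen with earlier results of these data known. Alternatives were other filters, scalings, priors and left-out arrays. For arrays, their number limits the precision.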

Additional observations from a re-analysis of the deposited data

Results flagged for a closer look

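The STAG2 transcript itself differed between lines in its STAG2 contrast, by a test of the difference itself. The deficient-minus-corrected difference in H4 minus that in 42MGBA was -1.89 (adjusted p = 0.00902, limma). The 42MGBA difference minus the HCT116 knockout-minus-wild-type difference was 2.14 (adjusted p = 0.014). Both values use the 42MGBA arrays, which were on another scale with a narrower range. Groups of 2 or 3 arrays are too small to be searched for single outlying samples.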

How the results depend on the processing

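In H4, 4 of the 10 genes and 429 of all genes passed; with the line fitted alone these were 1 and 34, with sister clones averaged 165 of all genes, and leaving out 1 array in turn gave 2 to 5 of the 10 and 169 (without clone 8-3) to 631 (without the parental array). In 42MGBA the count over all genes was 0, and 0 to 9 with 1 array left out (9 without clone 53-1). In HCT116 it was 17, against 10 with a stricter filter, 3 with the line fitted alone, 11 with a trended robust prior, 10 with sister clones averaged and 5 to 77 with 1 array left out (5 without clone 27, 77 without clone 7), where the lone array is assumed to vary like the other groups. For the differences between lines, passes were counted over the 10 genes and the 3 contrasts. There was 1 pass without the parental arrays and 0 to 2 with 1 array left out, and each pass was PDGFRA. The 42MGBA fit with the parent clone as a replicate block also left out the 42MGBA parental array. It called 0 genes, as did the main fit, and gave KITLG -1.24 (adjusted p = 0.4). Signs turned only for differences that had not passed. In 42MGBA, PDGFRB was 0.13 without the parental arrays, 0.14 with the replicate block and -0.22 to 0.13 with 1 array left out; AXL was 0.03 after quantile normalization, 0.01 after median centring and -0.25 to 0.17; ERBB2 was -0.01 without the parental arrays and -0.03 to 0.09. ERBB2 in H4 was -0.08 to 0.13, MET in HCT116 -0.40 to 0.09, KITLG in HCT116 -0.09 to 0.31, and STAG2 in H4 deficient minus HCT116 knockout -0.43 to 0.15. Fewer arrays were in the left-out fits; otherwise the cause was not tested.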
